A study of Homo sapiens with 34 samples.

Results

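Hyaluronan is a long sugar polymer that synthases in the cell membrane spin out into the space between cells, where it holds water and keeps cells apart. The chain is organised by hyalectans such as versican, which bind it and carry chondroitin sulfate, and by link proteins that lock hyalectans onto it. It is sensed by surface receptors such as CD44 and is cut by hyaluronidases and by the CEMIP proteins. In the gastrulating embryo a hyaluronan and versican matrix surrounds cells that leave the primitive streak, and mouse embryos without Has2 fail in heart and vessel formation.

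The genes described here are 7 of the 37951 genes in the count tables: the synthase genes HAS2 and HAS3, the link protein genes HAPLN1 and HAPLN3, the versican gene VCAN, the receptor gene CD44 and CEMIP. They were chosen by symbol, and the choice rested on their measured values in these same 17 conditions. Their levels and differences are therefore given as a description, with no test. Tests are given for 60 of 66 other genes of hyaluronan biology, those with enough counts.

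All libraries came from 1 established line of human embryonic stem cells, ESI017, in its wild-type form. Each of the 17 conditions had 2 replicate libraries, 34 in all. The control was kept in mTeSR PLUS medium and is labelled 48 h. For 24 h, cells received 1 of 4 primitive streak (PS) treatments. DE(a) held activin at 100 ng/ml and CHIR, an activator of Wnt signalling, at 2 µM. In APS, activin was at 30 ng/ml and CHIR at 4 µM, with bFGF at 20 ng/ml. In MPS, CHIR was at 6 µM and BMP4 at 40 ng/ml, beside the same activin and bFGF as in APS. In PPS, CHIR, BMP4 and bFGF were as in MPS and activin was left out. Each of the 4 populations was sampled at 24 h, and each was also moved for day 2 into 3 media and sampled at 48 h, which gives 12 further conditions named by both treatments (PPS-LM is PPS followed by LM). DE(b) medium, for definitive endoderm, combined activin at 100 ng/ml with the BMP receptor inhibitor LDN at 250 nM. PM medium, for paraxial mesoderm, combined the activin receptor inhibitor A8301 at 1 µM with LDN at 250 nM and bFGF at 20 ng/ml, without CHIR in the methods, while the study's main text describes Wnt activation in PM medium and 1 legend lists CHIR in it. LM medium, for lateral mesoderm, combined A8301 at 1 µM with the Wnt secretion inhibitor IWP2 at 4 µM and BMP4 at 30 ng/ml. Apart from MPS and PPS, which differ in activin alone, the day 1 treatments differ in several factors at once, and there the part of each factor cannot be told apart. The control and the DE(b), PM and LM conditions share a 48 h label, while the 24 h conditions do not, so treatment and time cannot be told apart in comparisons between them.

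Totals ran from 15522780 to 23439799 estimated counts per library (median 19341117), and the correlation between replicates across genes ran from 0.97 to 0.99. A count of 0 in a library allows a level of up to 0.128 to 0.193 CPM (estimated counts scaled to a common library total), taken as 3 counts and covering counting error only. The labelled fates were checked with marker genes. TBX6, a paraxial mesoderm gene, was at 146 to 195 CPM in the 8 PM libraries, and HAND1, a lateral mesoderm gene, at 388 to 2127 CPM in the 8 LM libraries. SOX17, an endoderm gene, was at 113 to 553 CPM in the 8 DE(b) libraries and also at 94.8 and 69.6 CPM in DE(a)-LM. FOXA2, another endoderm gene, was at 86.0 and 125 CPM in DE(a)-DE(b) and 52.9 and 79.1 CPM in APS-DE(b). It was at 17.1 and 37.8 CPM in MPS-DE(b) and 2.17 and 11.0 CPM in PPS-DE(b). CXCR4 was at 168 and 154 CPM in DE(a)-DE(b), 18.6 and 29.7 CPM in MPS-DE(b) and 9.25 and 17.5 CPM in PPS-DE(b). The study concludes that MPS and PPS cells lose endoderm potential, so DE(b) names the medium and not a fate. 1 PM library, DE(a)-PM replicate 1, stood apart in SOX17, FOXA2 and EOMES. SOX17 was at 72.7 CPM against 3.75 CPM in replicate 2, FOXA2 at 33.0 against 3.37 CPM and EOMES at 24.4 against 2.64 CPM. Other endoderm and streak markers were lower in that library: CXCR4 at 156 against 244 CPM, TBXT at 180 against 380 CPM and MIXL1 at 156 against 379 CPM. Summed neural markers (PAX6 and SOX1) stayed at or below 0.957 CPM in all libraries. In bulk libraries, fewer cells of a type and less RNA per cell cannot be told apart.

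Positions are those of GRCh38 (GENCODE v44). HAS3 is on chromosome 16 (69105653 to 69118719, plus strand) and CD44 on chromosome 11 (35138882 to 35232402, plus strand). CEMIP is on chromosome 15 (80779343 to 80951776, plus strand). VCAN (83471618 to 83582303, plus strand) and HAPLN1 (83637805 to 83720855, minus strand) are neighbours on chromosome 5, with their 3′ ends facing across a gap of 55501 bases that holds 0 other coding genes. HAPLN3 (88877294 to 88895597, minus strand) faces ACAN, the gene of the hyalectan aggrecan, across 1940 bases of chromosome 15. The same arrangement of a link protein gene next to a hyalectan gene holds for HAPLN4 and NCAN on chromosome 19 (gap 2522 bases) and for HAPLN2 and BCAN on chromosome 1 (gap 15664 bases). HAS3 overlaps the antisense genes CHTF8 and DERPC, which reached 90.3 and 49.2 CPM, and CEMIP overlaps the antisense gene MESD. The kit preserved strand, but reads that the counting might have split between such partners were not examined.

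RefSeq start-site sequences (GRCh38.p14) were matched for 6 of the 7 genes. The 250 bases upstream of HAS3 and of HAPLN1 are shown because these windows hold no GENCODE exon and belong to the genes that differ most with the day 2 medium and with the day 1 treatment, respectively. They are printed 5′ to 3′ on the gene's strand, and capitals mark GGTGTG, the core of the half-site bound by T-box factors such as the streak factor brachyury.
HAS3, chr16:69107290-69107539, plus strand: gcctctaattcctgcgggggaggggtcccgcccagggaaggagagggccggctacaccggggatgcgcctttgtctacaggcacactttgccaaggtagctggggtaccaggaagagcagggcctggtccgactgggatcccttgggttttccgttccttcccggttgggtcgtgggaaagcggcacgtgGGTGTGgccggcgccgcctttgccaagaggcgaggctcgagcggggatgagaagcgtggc
HAPLN1, chr5:83720856-83721105, minus strand: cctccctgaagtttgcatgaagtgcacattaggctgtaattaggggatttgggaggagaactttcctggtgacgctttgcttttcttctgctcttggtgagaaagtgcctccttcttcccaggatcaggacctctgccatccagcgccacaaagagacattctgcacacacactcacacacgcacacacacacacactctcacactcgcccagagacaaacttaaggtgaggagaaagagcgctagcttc
The HAS3 window lies inside the longer span of the gene in GENCODE. Searched on both strands (GGTGTG or its reverse complement CACACC), the core was found in the windows of HAS3, HAPLN3 and CD44, and it is in 14.2% of 35116 RefSeq windows of the same length. The cores CTTTGA (TCF/LEF factors, 11.2% of windows), AGATAA (for the factors of the GATA family, 9.17%) and TGTTTA (forkhead factors, 11.0%) were in none of the 6 windows. A match of these letters is a description of the sequence only.

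**Figure D1:**
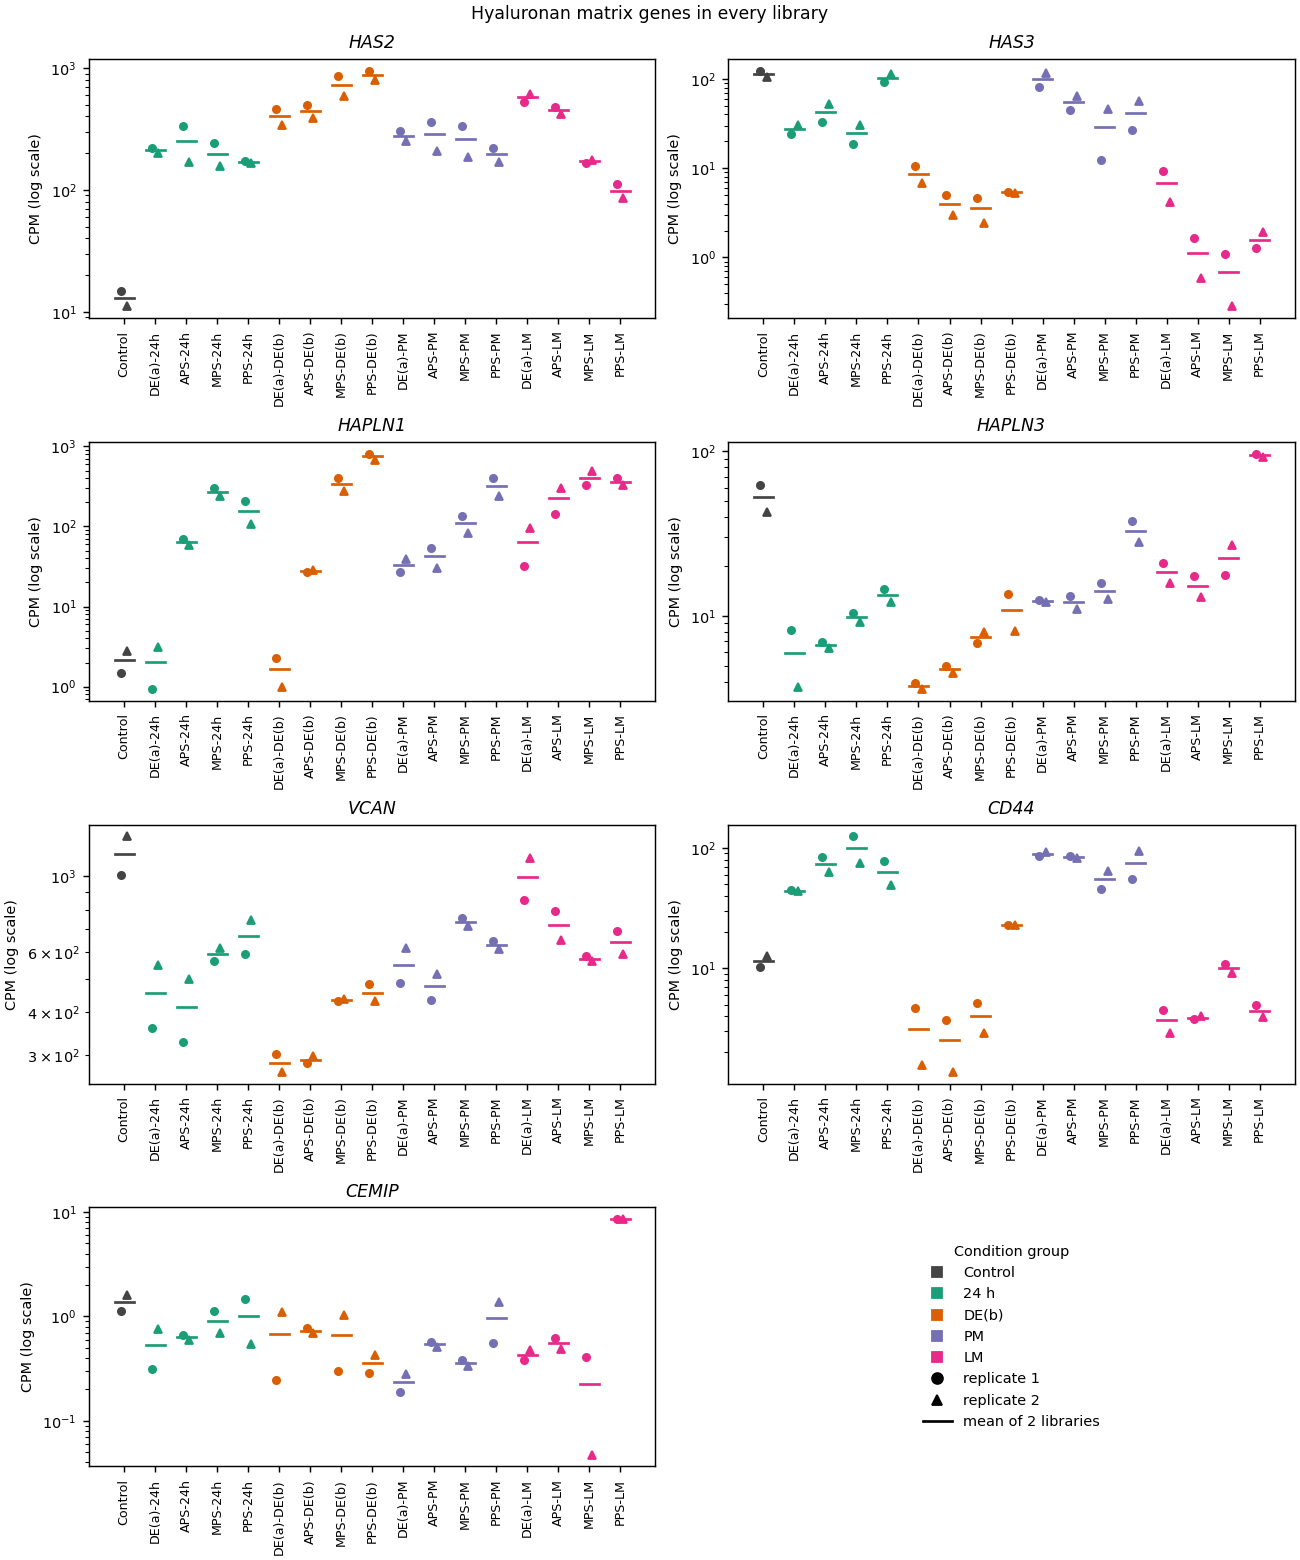
Level of each hyaluronan matrix gene in CPM (log scale) in the 17 conditions; circles are replicate 1, triangles replicate 2 and bars the mean of the 2 libraries, coloured by medium. HAS2 lies between 85.3 and 947 CPM in every treated library and at 11.1 and 14.9 CPM in the control, and CEMIP exceeds 1.59 CPM only in the 2 PPS-LM libraries.

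HAS2 encodes the synthase that makes most hyaluronan in embryos. It lies on chromosome 8 (121612116 to 121641440, minus strand). It was at 14.9 and 11.1 CPM in the 2 control libraries. At 24 h it was at 222 and 203 CPM in DE(a), 336 and 168 CPM in APS, 241 and 156 CPM in MPS, and 174 and 166 CPM in PPS. All 8 of these libraries lie above both control libraries, and the 4 treatments overlap with their neighbours in rank. The log2 fold changes from the control were 4.12 ± 0.36 (SE) for DE(a), 4.35 ± 0.36 for APS, 4.03 ± 0.36 for MPS and 3.73 ± 0.35 for PPS.

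On day 2, the order of the day 1 treatments in HAS2 differed between the media. In DE(b) medium, HAS2 was at 461 and 344 CPM after DE(a), 493 and 392 CPM after APS, 860 and 591 CPM after MPS, and 947 and 802 CPM after PPS. The MPS and PPS libraries all lie above the DE(a) and APS libraries there. In LM medium, it was at 528 and 618 CPM after DE(a), 480 and 418 CPM after APS, 167 and 175 CPM after MPS, and 112 and 85.3 CPM after PPS. This is the opposite order, with no overlap between any 2 of these 4 conditions. The log2 fold change of PPS over DE(a) was 1.16 ± 0.31 (SE) in DE(b) and -2.45 ± 0.33 in LM. In PM medium the 8 libraries ran from 170 to 361 CPM with a median of 235 CPM, and neighbouring conditions overlapped. Over the 24 libraries of day 2, on the log2(CPM + 1) scale, 46.7% of the sum of squares of HAS2 went with the combination of both treatments, 39.2% with the day 2 medium, 7.92% with the day 1 treatment and 6.24% with differences between replicates.

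HAS3, the other synthase gene among the 7, was highest in the control, at 123 and 106 CPM. At 24 h it was at 24.1 and 30.4 CPM in DE(a), 32.6 and 51.7 CPM in APS, 18.9 and 30.3 CPM in MPS, and 91.3 and 113 CPM in PPS. PPS overlaps the control, and the other 3 treatments lie below both. The log2 fold change of PPS over MPS, which differ in activin alone, was 1.98 ± 0.52 (SE). HAS2 in the same pair differed by -0.30 ± 0.31.

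The day 2 medium set HAS3 apart. It was at 2.45 to 10.5 CPM in the 8 DE(b) libraries (median 5.16), at 12.2 to 115 CPM in the 8 PM libraries (median 51.6), and at 0.285 to 9.32 CPM in the 8 LM libraries (median 1.46). No PM library overlaps a DE(b) or LM library. The medium took 82.6% of the sum of squares over the 24 day 2 libraries, the day 1 treatment 11.1% and the combination 1.54%. In all 3 media the DE(a) populations had the highest mean, with 82.0 and 115 CPM in DE(a)-PM, 10.5 and 6.80 CPM in DE(a)-DE(b), and 9.32 and 4.20 CPM in DE(a)-LM. In PM, replicate 2 was above replicate 1 in 4 of 4 conditions, most in MPS-PM with 12.2 and 46.3 CPM. At 24 h, HAS3 was likewise higher in replicate 2 in 4 of 4 conditions. The summed primitive streak markers (TBXT, MIXL1 and EOMES) were also higher in replicate 2 in the 4 PM conditions, at 279 to 478 CPM in replicate 1 and 590 to 761 CPM in replicate 2. This sum is mostly TBXT and MIXL1, each higher in replicate 2 in the 4 conditions. EOMES went the other way in DE(a)-PM (24.4 and 2.64 CPM), APS-PM (6.93 and 1.32 CPM) and MPS-PM (1.51 and 0.446 CPM). In PPS-PM it was at 0.389 and 0.571 CPM. The part of these marker differences in HAS3 was not tested.

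The synthase genes traded places between the control and the treated cells. Per kilobase of the GENCODE canonical transcript, the level of HAS2 was 0.113 times that of HAS3 in the control and 1.65 to 7.99 times in the 4 conditions at 24 h. The ratio was 2.79 to 8.78 in PM and 46.0 to 202 in DE(b). In LM it was 61.3 to 396, a range that rests on a few HAS3 counts, since the 2 APS-LM libraries gave 287 and 699. HAS1, the third synthase gene, did not exceed 1.63 CPM in any library and was called in 0 of the 13 comparisons tested with edgeR. Its unadjusted p was under 0.05 in 1 of them, MPS-LM against MPS-24h (adjusted p = 0.0540), the 1 comparison in which DESeq2 called it.

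**Figure D2:**
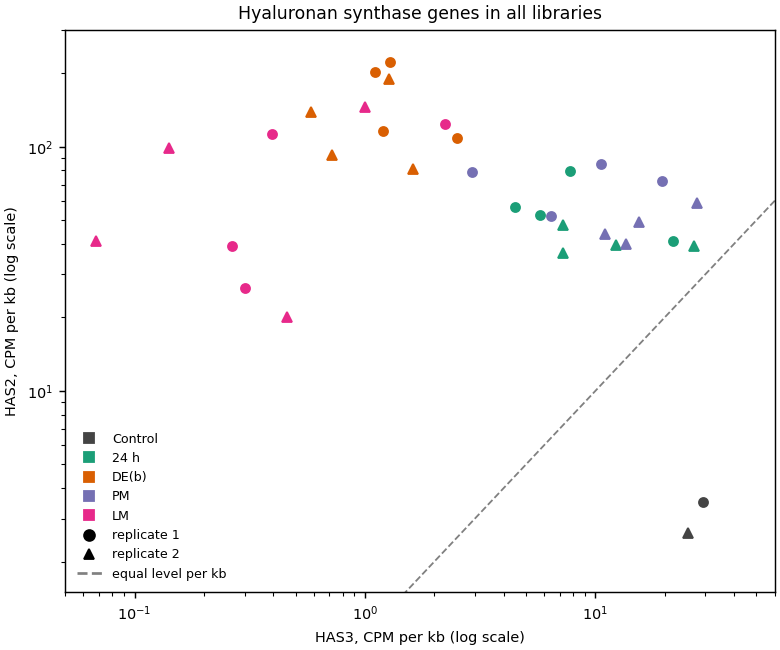
Level of HAS2 against HAS3 in the 34 libraries, both in CPM per kilobase of canonical transcript on log scales, coloured by medium; the dashed line marks equal levels. The 2 control libraries are the only ones under the line, and DE(b) and LM libraries lie farthest to the left.

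HAPLN1 encodes a link protein that ties versican to hyaluronan, and it had the widest range of the 7 genes, with a highest condition mean 458 times the lowest. It was at 1.49 and 2.82 CPM in the control and at 0.934 and 3.17 CPM in DE(a)-24h, which overlap. It was at 70.5 and 59.2 CPM in APS-24h, 303 and 238 CPM in MPS-24h, and 209 and 106 CPM in PPS-24h. No library of these 3 treatments overlaps the control or DE(a). The log2 fold change of APS over DE(a) at 24 h was 4.97 ± 0.63 (SE), and that of MPS over APS was 2.08 ± 0.51.

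On day 2 PPS lay above MPS in DE(b) and PM media, where the 24 h order was the opposite. In DE(b) medium HAPLN1 was at 2.29 and 0.988 CPM after DE(a), 27.1 and 28.9 CPM after APS, 405 and 279 CPM after MPS, and 813 and 687 CPM after PPS, with no overlap between these conditions. PPS-DE(b) was the highest condition of all 17. In PM medium it was at 27.1 and 39.5 CPM after DE(a), 53.8 and 30.7 CPM after APS, 137 and 83.8 CPM after MPS, and 408 and 241 CPM after PPS. In LM medium it was at 32.4 and 95.2 CPM after DE(a), 143 and 306 CPM after APS, 325 and 491 CPM after MPS, and 400 and 328 CPM after PPS. The DE(a) condition had the lowest mean in each medium, and the log2 fold change of PPS over DE(a) was 8.86 ± 0.73 (SE) for DE(b) medium, 3.30 ± 0.54 for PM and 2.58 ± 0.52 for LM. DE(a) cells that were moved to LM had a HAPLN1 level 4.86 ± 0.63 log2 units above DE(a)-24h. The day 1 treatment took 65.6% of the sum of squares over the day 2 libraries, the medium 9.83%, the combination 21.8% and replicates 2.82%.

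HAPLN3 encodes a second link protein, found more widely outside cartilage and brain. Its control level of 62.6 and 42.6 CPM was above every 24 h library, which ran from 3.73 CPM in DE(a) to 14.5 CPM in PPS. The log2 fold changes from the control were -3.05 ± 0.31 (SE) for DE(a), -2.90 ± 0.31 for APS, -2.32 ± 0.30 for MPS and -1.96 ± 0.29 for PPS. On day 2 it was at 3.60 to 13.7 CPM in DE(b) medium, from 11.0 to 37.5 CPM in PM, and from 13.0 to 96.4 CPM in LM. PPS had the highest mean in each medium. The highest condition was PPS-LM, with 96.4 and 92.3 CPM against 17.7 and 26.9 CPM in MPS-LM, a log2 fold change of 2.05 ± 0.29.

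VCAN encodes versican, and it was the most even of the 7 genes, with a highest condition mean 4.08 times the lowest. The control had 1013 and 1310 CPM. At 24 h the 8 libraries ran from 327 to 747 CPM, all below the control, with log2 fold changes from -1.41 ± 0.21 (SE) in APS to -0.77 ± 0.21 in PPS. On day 2 the medians were 367 CPM for DE(b), 616 CPM for PM and 672 CPM for LM. DE(a)-LM, with 855 and 1134 CPM, overlapped the control. As for HAS2, the order of day 1 treatments turned between media: VCAN was at 302 and 268 CPM in DE(a)-DE(b) against 483 and 431 CPM in PPS-DE(b), and at 855 and 1134 CPM in DE(a)-LM against 693 and 592 CPM in PPS-LM.

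The balance of the link protein gene and its chromosomal neighbour followed HAPLN1. Per kilobase, HAPLN1 was at 0.00472 times the level of VCAN in the control, 0.0115 times in DE(a)-24h and 1.16 times in MPS-24h. On day 2 the ratio ran from 0.0146 in DE(a)-DE(b) to 4.18 in PPS-DE(b). Across the 17 condition means, which share their libraries and media, HAPLN1 and VCAN had a Pearson r of 0.14 on the log2(CPM + 1) scale.

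**Figure D3:**
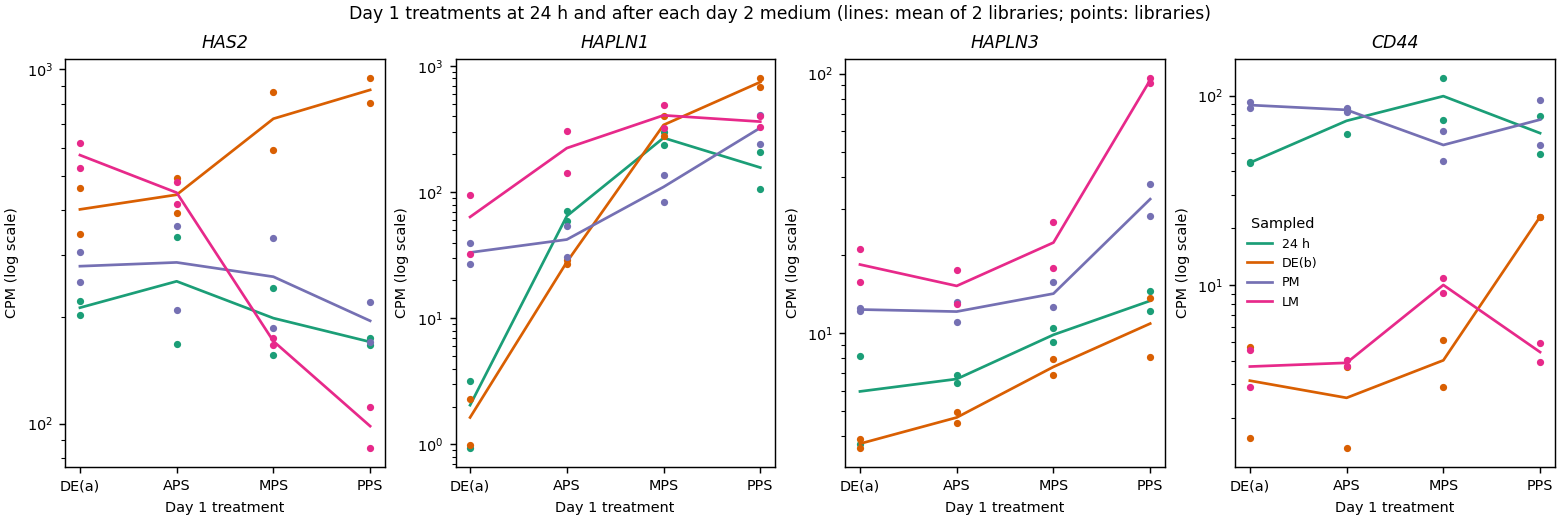
Levels of HAS2, HAPLN1, HAPLN3 and CD44 in CPM (log scale) by day 1 treatment; each line joins the means of 2 libraries at 24 h or in 1 day 2 medium, and points are libraries. The HAS2 lines cross, from 402 to 875 CPM in DE(b) and from 573 to 98.4 CPM in LM between DE(a) and PPS, while the HAPLN1 mean is lowest after DE(a) in each set.

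CD44 encodes the main hyaluronan receptor, which is linked to the actin cytoskeleton through ezrin, radixin and moesin. It was at 10.1 and 12.6 CPM in the control. At 24 h it was at 44.6 and 43.9 CPM in DE(a), 84.7 and 62.6 CPM in APS, 124 and 74.3 CPM in MPS, and 77.9 and 48.9 CPM in PPS, all above the control. In PM it stayed in this range, at 45.1 to 94.6 CPM. In LM it was at 2.91 to 10.9 CPM and in DE(b) at 1.38 to 5.13 CPM, except for PPS-DE(b), with a mean of 22.9 ± 0.0211 CPM (SD, n = 2). No PM library overlaps a DE(b) or LM library. The medium took 82.2% of the sum of squares over the day 2 libraries, close to its share for HAS3. The log2 fold change of PPS-DE(b) over DE(a)-DE(b) was 2.89 ± 0.44 (SE). PPS-DE(b) was also the DE(b) condition with the lowest summed endoderm markers (SOX17, FOXA2 and CXCR4), at 124 and 252 CPM against 427 to 722 CPM in the other 6 DE(b) libraries. In PM the same sum was 234 to 335 CPM, mostly from CXCR4. Among DE(b) conditions PPS-DE(b) had the highest TBX6, at 49.3 and 52.8 CPM, and HAND1, at 100 and 69.3 CPM. It likewise had the highest TBXT (108 and 85.6 CPM) and MIXL1 (1130 and 1241 CPM), but the lowest EOMES (368 and 412 CPM). The part of these markers in the CD44 level was not tested.

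CEMIP encodes a secreted protein needed for hyaluronan breakdown in several cell types. It was at most 1.59 CPM in 32 of the 34 libraries and at 8.52 and 8.53 CPM in PPS-LM. The log2 fold change of PPS-LM over DE(a)-LM was 4.37 ± 0.80 (SE) and over PPS-24h 3.10 ± 0.74. Outside PPS-LM most values rest on few counts, and 1 MPS-LM library had 1 count.

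HAPLN3 and CEMIP shared their highest condition. PPS-LM was also the condition with the highest summed amnion markers (TFAP2A, GATA3 and ISL1, 3 of 3 detected), at 295 and 397 CPM. A supplementary legend of the study lists only GATA3 and TFAP2A for amnion and places ISL1 with lateral mesoderm. The same sum was 226 and 288 CPM in DE(a)-LM, 77.6 to 126 CPM in the other 4 LM libraries, and at most 23.5 CPM in DE(b) and PM. At 24 h it was 126 and 159 CPM in PPS and at most 63.3 CPM in the other treatments. Of the 3 markers, TFAP2A was at 55.1 and 88.2 CPM in DE(a)-LM against 113 and 167 CPM in PPS-LM, ISL1 at 42.6 and 59.4 against 75.1 and 94.8 CPM, and GATA3 at 129 and 140 against 107 and 136 CPM. In DE(a)-LM, HAPLN3 was at 21.0 and 15.8 CPM and CEMIP at 0.382 and 0.477 CPM. In PPS-24h, HAPLN3 was at 14.5 and 12.2 CPM and CEMIP at 1.48 and 0.542 CPM. The part of amnion-like cells in the HAPLN3 and CEMIP levels was not tested.

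Across the 17 condition means of log2(CPM + 1), the closest pairs among the 7 genes were HAS3 with CD44 (Pearson r 0.74) and HAPLN3 with VCAN (Pearson r 0.74), and HAS2 with HAPLN3 was the most opposed (Pearson r -0.62). These values describe conditions that share day 1 and day 2 treatments, so they are not independent points. Over all genes with enough counts, those closest to HAPLN1 were BMP4 (r 0.94), SUSD1 (r 0.92) and FRMD6 (r 0.90). BMP4 protein was added in MPS, PPS and LM, and the values here are of the cells' own BMP4 transcript. The closest gene to HAPLN3 was MFGE8 (r 0.93), which lies 3085 bases away on the same strand of chromosome 15, and HEBP1 was also among the closest (r 0.90). HAS3 was closest to SLC43A3 (r 0.96), CDCP1 (r 0.95) and RIMS4 (r 0.94), and CD44 to PCSK1 (r 0.96), TXLNA (r 0.95) and CENPN (r 0.94). VCAN was closest to RAD51AP1 (r 0.92), INAFM2 (r 0.86) and ATG3 (r 0.85). For HAS2 the closest were 1 of 2 entries named DLC1 (r 0.92), whose reads could be shared with the other entry, then ITGA5 and AMOTL1 (both r 0.89). Without the control these 3 values were 0.79, 0.68 and 0.76. Ranks of some other pairs moved too: MFGE8 went from 1 to 7 for HAPLN3 (r 0.92) and ATG3 from 3 to 35 for VCAN (r 0.80). BMP4, SUSD1 and FRMD6 kept ranks 1, 2 and 3 for HAPLN1.

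Of the 7 genes, 5 were called in DE(a)-24h against the control at an adjusted p under 0.05 by edgeR, in which 19.0% of the 17895 tested genes were called. In APS-24h 5 were called (24.5% of all genes), in MPS-24h 6 (30.0%) and in PPS-24h 5 (29.8%), each against the control. From 24 h to 48 h, 4 were called in DE(a)-DE(b) (28.0%), 0 in APS-PM (25.1%) and 3 in MPS-LM (31.3%). Between the media, each a mean over 4 conditions, 5 were called in DE(b) against PM (43.0%), 5 in LM against PM (42.0%) and 5 in LM against DE(b) (39.6%). Between PPS and DE(a), 5 were called for DE(b) (17.4%), 2 for PM (8.61%) and 5 for LM (14.3%). These contrasts use the values by which the genes were chosen, so nothing is read from the counts.

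The other genes of hyaluronan biology were tested to place these levels in the pathway. The 66 genes cover sugar precursors, breakdown, receptors, other hyalectans and link proteins, heavy chain transfer, versican partners and the proteases that cleave versican, chondroitin sulfate synthesis, and CD44 linkers and splicing regulators. The 6 without enough counts were HAPLN2, HYAL4, ITIH1, ITIH2, ITIH3 and LYVE1, none above 1.05 CPM. P-values measure the spread between these libraries, which the study's supplement calls biological replicates, while the labels do not say whether they were separate cultures.

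Against the control, 22 of the 60 genes were called in DE(a)-24h (13 higher and 9 lower), 26 in APS-24h (16 and 10), 29 in MPS-24h (20 and 9) and 26 in PPS-24h (18 and 8). The shares of 36.7%, 43.3%, 48.3% and 43.3% stand beside 19.0%, 24.5%, 30.0% and 29.8% of all tested genes, and the median log2 fold changes of the 60 genes were 0.10, 0.03, 0.28 and 0.18. Of all 17895 tested genes, 1842 rose and 1553 fell in DE(a)-24h, and 2429 and 1960 in APS-24h. In MPS-24h the numbers were 2961 and 2403, and in PPS-24h 2938 and 2400. The counts of the list rest in part on single libraries. When any 1 of the libraries compared was left out, fewer of the 60 genes were called in each of these comparisons. Fewer of all tested genes were called as well, so the loss is not particular to the list.

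Of the 13 tested versican partners and proteases, 6 rose in DE(a), 7 in APS, 7 in MPS and 5 in PPS, where 2 fell (FBLN2 and ADAMTS20). FBN2, the gene of the microfibril protein fibrillin 2, was at 32.5 CPM in the control and 776 CPM in MPS-24h (log2 fold change 4.67 ± 0.18, adjusted p = 4.87e-14), and it rose in all 4 treatments. ADAMTS1, a protease that cleaves versican, rose from 18.0 to 224 CPM in MPS-24h (3.73 ± 0.21, adjusted p = 1.80e-11) and also in the other 3. ADAMTS5, another such protease, was at 49.6 and 48.9 CPM in MPS-24h and 2.17 and 2.18 CPM in the control (log2 fold change 4.60 ± 0.62, adjusted p = 5.63e-06) and also rose in PPS (3.38 ± 0.60, adjusted p = 0.000148). TNC, the gene of tenascin C, rose in DE(a) (adjusted p = 0.0147) and APS (adjusted p = 0.0201), calls that were lost without either control library or without replicate 1 of the treated condition. FBLN2, the gene of fibulin 2, fell in PPS (log2 fold change -1.13 ± 0.37, adjusted p = 0.0230), which was lost without control replicate 1 (adjusted p = 0.180) or either PPS library. The fall of ADAMTS20, a protease gene, in PPS (adjusted p = 0.0275) was lost when any 1 of the 4 libraries compared was left out.

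Of 4 tested genes of other hyalectans and link proteins, 2 fell in DE(a), 3 in APS, 3 in MPS and 2 in PPS. HAPLN4, a link protein gene of the brain, was at 34.2 and 27.5 CPM in the control and 9.00 to 15.8 CPM at 24 h, and it fell in all 4 treatments, by 1.61 ± 0.21 log2 units in MPS (adjusted p = 4.64e-06). Its call in DE(a) was lost without control replicate 1 (adjusted p = 0.0602). Its neighbour NCAN, the gene of the hyalectan neurocan, was at 10.7 and 9.57 CPM in the control and fell in DE(a), APS and MPS, with a log2 fold change of -1.89 ± 0.42 in MPS (adjusted p = 0.00134). In DE(a) the NCAN call was lost without DE(a)-24h replicate 2, and in APS without control replicate 1 or either APS library. BCAN fell in APS, MPS and PPS from 6.64 and 5.76 CPM, to at most 1.89 CPM, and each of these 3 calls was lost when any 1 of the 4 libraries compared was left out. ACAN, at 2.12 and 3.03 CPM in the control, passed the test in 0 of the 4 comparisons by edgeR or DESeq2, with 0 unadjusted p under 0.05.

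Of 8 tested genes of synthesis and sugar precursors, 3 rose and 1 fell in each treatment. Of 13 tested genes of chondroitin sulfate synthesis, 2 rose and 2 fell in DE(a), and 3 and 2 in APS. In MPS 4 rose and 1 fell, and in PPS 4 rose and 0 fell. GFPT2, which feeds the hexosamine pathway that supplies 1 of the 2 sugars of hyaluronan, was among those that fell. It went from 144 CPM in the control to 30.5 CPM in MPS-24h (log2 fold change -2.14 ± 0.18, adjusted p = 5.90e-09) and to 22.7 CPM in PPS-24h (-2.64 ± 0.18, adjusted p = 3.96e-10). In DE(a) it fell as well (-0.90 ± 0.17, adjusted p = 0.000565). XYLT2, which starts chondroitin sulfate chains, fell in DE(a), in APS by 1.20 ± 0.21 log2 units (adjusted p = 0.000170) and in MPS by 1.23 ± 0.21 (adjusted p = 0.000103). XYLT1 fell in DE(a) (log2 fold change -0.97 ± 0.18, adjusted p = 0.000401) and APS (adjusted p = 0.000218). The XYLT2 call in DE(a) was lost without control replicate 1 (adjusted p = 0.0774). In the breakdown group of 8 tested genes, 2 rose in MPS and 3 in PPS. HYAL1, a lysosomal hyaluronidase gene, rose from 2.12 and 2.13 CPM to 7.93 and 7.91 CPM in MPS-24h (adjusted p = 0.00157), and it also rose in PPS-24h (1.77 ± 0.45, adjusted p = 0.00461).

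**Figure D4:**
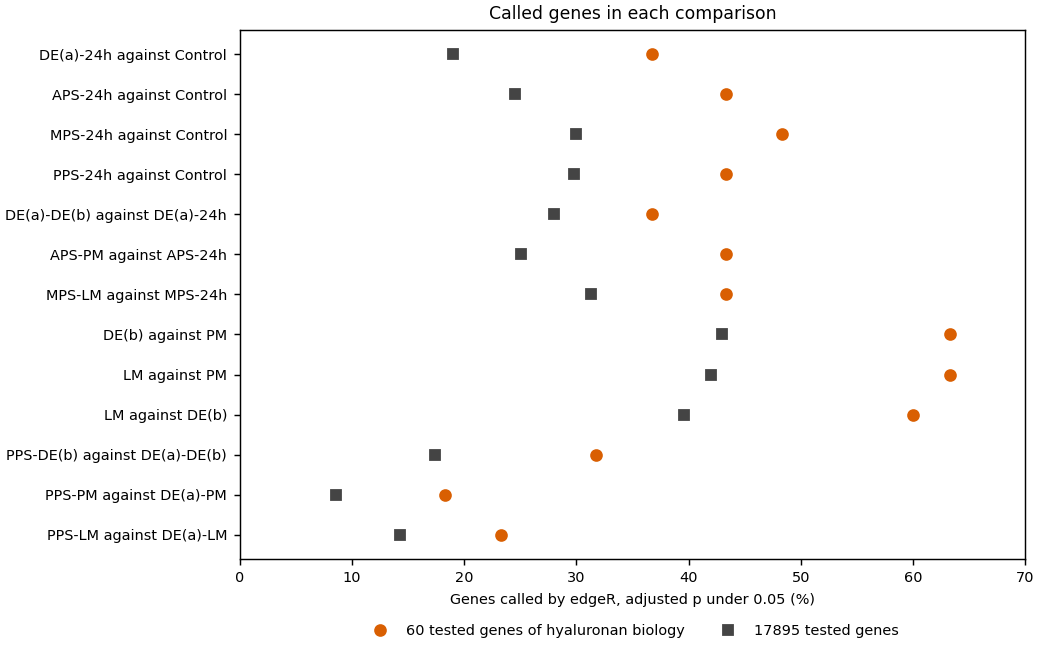
Share of genes called by edgeR at an adjusted p under 0.05 in each of the 13 comparisons, for the 60 tested genes of hyaluronan biology other than the 7 (circles) and for all 17895 tested genes (squares). The list runs from 18.3% to 63.3% and all genes from 8.61% to 43.0%.

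From 24 h to 48 h along the standard route of each fate, 22 of the 60 genes were called in DE(a)-DE(b) (15 higher and 7 lower, 36.7% beside 28.0% of all genes), 26 in APS-PM (15 and 11, 43.3% beside 25.1%) and 26 in MPS-LM (10 and 16, 43.3% beside 31.3%). On the endoderm route, where CD44 differed by -3.87 ± 0.45 (SE) and HAS2 by 0.85 ± 0.31 log2 units, TNC rose from 86.6 to 565 CPM (adjusted p = 0.00641) and ADAMTS9, a protease gene, from 2.56 to 38.9 CPM (adjusted p = 3.74e-06). The TNC call was lost without DE(a)-24h replicate 2 (adjusted p = 0.0836). FBN1 also rose there, and UGP2, HAPLN4 and ADAMTS1 fell. UGP2 makes the UDP-glucose from which the other sugar of hyaluronan is derived, and it was at 141 CPM in DE(a)-DE(b) against 334 CPM at 24 h.

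On the paraxial route, HYAL1 rose from 2.61 to 19.0 CPM (log2 fold change 2.76 ± 0.45, adjusted p = 9.61e-05). FBN1 rose from 17.6 to 121 CPM (2.67 ± 0.28, adjusted p = 4.39e-07), and ADAMTS15 rose as well. HYAL2 rose by 0.57 ± 0.18 log2 units (adjusted p = 0.0227), a call lost without APS-24h replicate 2 (adjusted p = 0.157), without either APS-PM library and when only these 4 libraries were fitted. ACAN rose (2.34 ± 0.56, adjusted p = 0.00357), which was lost without APS-24h replicate 2 (adjusted p = 0.0688), and NCAN fell (-1.81 ± 0.43, adjusted p = 0.00343). ESRP1 and ESRP2, splicing regulators known to act on CD44 transcripts in epithelial cells, fell, with log2 fold changes of -3.15 ± 0.28 (adjusted p = 4.75e-08) and -3.41 ± 0.43 (adjusted p = 3.88e-06), and UGP2 fell. CD44 isoforms cannot be read from gene counts.

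On the lateral route, HAS3 differed by -5.21 ± 0.70 (SE) and CD44 by -3.33 ± 0.42 log2 units, while HAS2 differed by -0.23 ± 0.31. ADAMTS9 rose from 3.54 to 398 CPM (log2 fold change 6.79 ± 0.51, adjusted p = 2.35e-09) and FBLN2 from 12.3 to 404 CPM (5.03 ± 0.41, adjusted p = 5.91e-09). ACAN rose from 1.23 to 27.1 CPM (4.44 ± 0.59, adjusted p = 5.40e-06), while its neighbour HAPLN3 was at 9.86 and 22.3 CPM. NCAN fell (-1.79 ± 0.45, adjusted p = 0.00361). HYAL1 fell (-1.27 ± 0.44, adjusted p = 0.0312), a call lost when any 1 of the 4 libraries compared was left out. ADAMTS5 fell from 49.3 to 0.543 CPM (-6.45 ± 0.70, adjusted p = 3.41e-07). ESRP1 fell, and so did LAYN, the gene of the receptor layilin, which was at 51.9 and 44.1 CPM in MPS-24h and 6.06 and 5.92 CPM in MPS-LM (adjusted p = 6.65e-08).

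Between media averaged over the 4 day 1 treatments, 38 of the 60 genes were called in DE(b) against PM (24 higher and 14 lower, 63.3% beside 43.0% of all genes), 38 in LM against PM (20 and 18, 63.3% beside 42.0%) and 36 in LM against DE(b) (19 and 17, beside 39.6%). Among the 7 genes, HAS2 was higher in DE(b) than in PM by 1.26 ± 0.16 (SE) log2 units and differed by 0.09 ± 0.16 between LM and PM. Against PM, the log2 fold changes of HAS3 were -3.27 ± 0.28 in DE(b) and -4.86 ± 0.32 in LM, and those of CD44 were -3.78 ± 0.22 and -3.83 ± 0.22. HAPLN3 was higher in LM than in DE(b) by 2.17 ± 0.15 log2 units. For HAPLN1 the value depends on the averaging: the mean of log values over the 4 conditions was 1.88 ± 0.27 higher in LM, while the log2 difference of the mean CPM was -0.08, at -0.47 in replicate 1 and 0.29 in replicate 2, and after PPS the level was 364 CPM in LM against 750 CPM in DE(b).

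The hyaluronidase genes HYAL1 and HYAL2 were higher in PM than in both other media. HYAL1 was at 9.82 to 25.5 CPM in the 8 PM libraries and at most 5.88 CPM in DE(b) and LM, with a log2 fold change of -2.63 ± 0.23 for DE(b) against PM (adjusted p = 3.02e-09) and -2.12 ± 0.22 for LM against PM (adjusted p = 5.59e-08). HYAL2, the hyaluronidase at the cell surface, had log2 fold changes of -0.34 ± 0.09 in DE(b) (adjusted p = 0.00327) and -0.67 ± 0.09 in LM (adjusted p = 2.28e-06). It was also lower in LM than in DE(b) (-0.32 ± 0.09, adjusted p = 0.00623). HYAL3 was lower in LM than in PM (adjusted p = 0.00340). ADAMTS15 was lower in LM than in PM (log2 fold change -2.20 ± 0.22, adjusted p = 2.70e-08), and ADAMTS20 and CHSY3 were lower in DE(b) than in PM.

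Genes of versican partners and proteases were among those highest in LM. FBLN2 was at 287 CPM in LM, 29.2 CPM in PM and 31.7 CPM in DE(b), with log2 fold changes of 3.67 ± 0.19 (adjusted p = 5.80e-13) and 3.10 ± 0.19 (adjusted p = 5.51e-12). ADAMTS9 was at 287 CPM in LM against 27.9 CPM in PM (3.34 ± 0.21, adjusted p = 1.63e-11) and 56.4 CPM in DE(b) (2.38 ± 0.20, adjusted p = 2.40e-09). ACAN was higher in LM than in DE(b), by 3.07 ± 0.28 log2 units (adjusted p = 6.60e-09), and than in PM, by 2.06 ± 0.26 (adjusted p = 1.08e-06). ACAN was lower in DE(b) than in PM (-1.01 ± 0.27, adjusted p = 0.00420). BCAN was lower than in PM in both DE(b) (-1.49 ± 0.34, adjusted p = 0.000913) and LM (-1.09 ± 0.33, adjusted p = 0.0100). HAPLN4 was higher in LM than in DE(b) (0.44 ± 0.11, adjusted p = 0.00220) and lower in DE(b) than in PM (-0.29 ± 0.11, adjusted p = 0.0338). The latter call was lost when only these libraries were fitted, with no filter, and without replicate 1 of DE(a)-DE(b), APS-DE(b), PPS-DE(b), APS-PM, MPS-PM or PPS-PM or replicate 2 of MPS-DE(b) or DE(a)-PM. NCAN passed the test in LM against DE(b) (0.56 ± 0.22, adjusted p = 0.0492), a call lost with RLE size factors and without any 1 of 11 of the 16 libraries. TNC was lower in PM, at 103 CPM, than in DE(b), at 370 CPM (adjusted p = 5.19e-06), and in LM, at 349 CPM (adjusted p = 6.23e-06). ITIH5, the gene of a heavy chain that can be transferred to hyaluronan, was at 9.92 CPM in DE(b) and 0.656 CPM in PM (3.96 ± 0.25, adjusted p = 1.63e-11), and lower in LM than in DE(b). STAB2 and ESRP1 were likewise lower in LM than in DE(b).

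Between PPS and DE(a) populations in the same medium, 19 of the 60 genes were called in DE(b) (15 higher and 4 lower, 31.7% beside 17.4% of all genes), 11 in PM (5 and 6, 18.3% beside 8.61%) and 14 in LM (6 and 8, 23.3% beside 14.3%). The first count was lower without DE(a)-DE(b) replicate 2, and the count in PM was lower without DE(a)-PM replicate 1 or PPS-PM replicate 2. Fewer of all tested genes were called in these fits as well. When only the 4 libraries compared in PM were fitted, 2 of 55 tested genes of the list were called. Over all genes that fit called 167 of 15652, where the fit of all libraries called 1541 of 17895.

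STAB2, the gene of a scavenger receptor that clears hyaluronan, was at 179 and 166 CPM in PPS-DE(b), 20.3 and 33.9 CPM in MPS-DE(b) and at most 2.57 CPM in the other 4 DE(b) libraries. The log2 fold change of PPS over DE(a) was 7.95 ± 0.54 in DE(b) (adjusted p = 2.84e-09) and 5.01 ± 0.50 in PM (adjusted p = 1.23e-06). STAB2 is known from sinusoidal endothelium, and the endothelial and blood markers PECAM1, CDH5 and PTPRC summed to 0.433 and 0.607 CPM in PPS-DE(b) and to at most 3.21 CPM in any library. In DE(b) medium the STAB2 values had the same order of conditions as HAPLN1, given above. LAYN was at 21.6 and 18.7 CPM in PPS-DE(b) and 0.690 and 0.930 CPM in DE(a)-DE(b) (4.68 ± 0.34, adjusted p = 5.62e-09). Of the 4 tested receptor genes, STAB2 and LAYN were called in this comparison, and HMMR and STAB1 were not. CD44, which was chosen on its values in these data, also had a higher level in PPS-DE(b) than in DE(a)-DE(b).

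Of the other hyalectan and hyaluronidase genes, ACAN was higher in PPS-DE(b) than in DE(a)-DE(b) (2.54 ± 0.58, adjusted p = 0.00333). HYAL1 (1.56 ± 0.45, adjusted p = 0.0189) and HYAL2 (0.64 ± 0.18, adjusted p = 0.0152) were higher too, and NCAN was lower (-1.50 ± 0.46, adjusted p = 0.0277). These last 3 calls were lost when only the 4 libraries were fitted, and without DE(a)-DE(b) replicate 2 or PPS-DE(b) replicate 1. The HYAL1 call was also lost without PPS-DE(b) replicate 2 and the NCAN call without DE(a)-DE(b) replicate 1. NCAN was also lower in PPS-LM than in DE(a)-LM (-2.11 ± 0.44, adjusted p = 0.00158).

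FN1, the gene of fibronectin, was at 5382 and 4675 CPM in PPS-DE(b) against 843 and 1067 CPM in DE(a)-DE(b) (log2 fold change 2.44 ± 0.29, adjusted p = 4.15e-06), and in LM it was lower after PPS (-1.75 ± 0.29, adjusted p = 0.000144). FBN2 was lower in PPS-LM than in DE(a)-LM, at 603 against 2063 CPM (adjusted p = 1.57e-07), and ITIH5 was lower too, at 0.451 against 12.1 CPM (adjusted p = 1.44e-06). ADAMTS20 was higher in PPS-LM, at 16.8 against 1.77 CPM (3.32 ± 0.35, adjusted p = 7.00e-07), as was FBN1 (adjusted p = 0.000262). ADAMTS9 was higher in PPS-LM (adjusted p = 0.0315), a call lost without DE(a)-LM replicate 1 (adjusted p = 0.365) or PPS-LM replicate 1 (adjusted p = 0.147). XYLT2, ESRP1 and ESRP2 were lower in PPS-DE(b) than in DE(a)-DE(b), with adjusted p of 1.99e-07, 1.87e-05 and 0.00304. The ESRP2 call was lost without PPS-DE(b) replicate 1 (adjusted p = 0.0759).

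In PM, where HAPLN1 and HAPLN3 differed between PPS and DE(a) by 3.30 ± 0.54 and 1.43 ± 0.29 (SE) log2 units, ADAMTS15 was at 7.63 CPM after PPS and 74.3 CPM after DE(a) (-3.26 ± 0.44, adjusted p = 5.41e-05) and FBLN2 at 6.86 and 65.3 CPM (-3.23 ± 0.38, adjusted p = 1.18e-05). TNC was lower and CHSY3 and FN1 were higher after PPS, with adjusted p of 0.00774, 0.0104 and 0.0105. The calls of FBLN2, TNC, CHSY3 and FN1 were lost when only these 4 libraries were fitted. Each of the TNC, CHSY3 and FN1 calls was also lost without 1 or more single libraries: TNC without DE(a)-PM replicate 1 or PPS-PM replicate 2, CHSY3 without either DE(a)-PM library or PPS-PM replicate 2, and FN1 without DE(a)-PM replicate 2 or PPS-PM replicate 1. Without DE(a)-PM replicate 1, the library that stood apart in SOX17, the log2 fold change was -2.58 for ADAMTS15 (adjusted p = 0.00147), -2.41 for FBLN2 (adjusted p = 0.000331), -2.18 for TNC (adjusted p = 0.137) and 4.45 for STAB2 (adjusted p = 0.000220), and the differences were 3.04 ± 0.72 in HAPLN1 and 1.44 ± 0.38 in HAPLN3. In that library FBLN2 was at 94.1 CPM against 36.6 CPM in replicate 2 and ADAMTS15 at 103 against 45.7 CPM.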

How the data were processed

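RNA of 34 libraries (17 conditions, 2 replicates each) was prepared with a strand-preserving poly(A) kit. The authors quantified reads with Salmon (1.10.2 per the submitters' processing notes) against GRCh38 and deposited estimated counts summed to genes, without normalization, in 1 table per replicate. 0 count columns lacked a sample.

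The 7 genes, the 66 pathway genes and the tests were chosen with earlier results of these data known. CPM are counts over the library total; levels between genes are compared only per kilobase of GENCODE v44 canonical transcript. Counts were rounded and tested in edgeR 4.0.16 (R 4.3.3): TMM, the filterByExpr filter with conditions as groups (17895 genes kept of 37951), a mean for each condition, 17 residual degrees of freedom, quasi-likelihood tests, Benjamini-Hochberg adjustment over all tested genes, called under 0.05. Values after ± are SE of log2 fold changes. Steps were tested on simulated data. Totals ran from 15522780 to 23439799.

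Pathway genes named in each comparison are up to 3 called genes with the largest rise and up to 3 with the largest fall, whose mean reached 10 CPM in a condition compared and the same direction in both replicates; HAS, HYAL and HAPLN genes and the other hyalectans are named in any case. Levels of marker genes are named as checks. Likeness is Pearson's r over 17 condition means of log2(CPM + 1). Alternatives were RLE factors, no filter beyond a count above 0, DESeq2 1.42.0, only the libraries compared, a replicate term, each library left out, TMM-scaled CPM, a pseudocount of 0.1 and no control. Some genes that these rules pick are not reported here.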

Additional observations from a re-analysis of the deposited data

Results flagged for a closer look

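The difference between PPS and DE(a) populations went opposite ways in different day 2 media for 10 genes, with both libraries of PPS above, or below, both libraries of DE(a) in each medium given. The difference between media was not tested. These 10 genes are all among the matrix and pathway genes named in this report. The share of all tested genes with such a pattern was not computed. The count of 10 therefore has no background to be read against, and some of the differences are small. The values are log2 differences of mean CPM, PPS over DE(a). HAS2 had 1.12 in DE(b), against -0.51 in PM and -2.54 in LM. VCAN had 0.68 in DE(b) and -0.63 in LM. FN1 had 2.40 in DE(b) and 1.15 in PM, but -1.84 in LM. FBN2 had 1.01 in DE(b), against -0.97 in PM and -1.77 in LM. FBLN2 had 0.63 in DE(b), against -3.25 in PM and -0.86 in LM. GFPT2 had 0.19 in DE(b) and -0.79 in LM. Among the proteases, ADAMTS1 had 0.28 in DE(b) and 1.11 in LM, against -0.17 in PM, and ADAMTS9 had -0.34 in DE(b) and -0.44 in PM, against 1.19 in LM. ADAMTS15 had 1.55 in DE(b) and -3.29 in PM, and ADAMTS20 had -1.23 in PM and 3.25 in LM. With 2 libraries per condition, no library could be tested as standing apart from its group.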

How the results depend on the processing

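Of 153 counts of called pathway genes under the alternatives, 142 were within 1.5 times the value given and 11 were not. Fitting only the libraries compared moved 1, PPS-PM against DE(a)-PM, from 11 to 2 genes, and over all genes from 1541 to 167. With each library left out in turn, keeping the dispersion trend of all libraries and assuming that a lone library varies like the others, the counts ran from 12 to 15 in DE(a)-24h, 14 to 19 in APS-24h and 17 to 19 in PPS-24h (each against the control). They ran from 12 to 15 for PPS-DE(b) and 5 to 11 for PPS-PM (against DE(a)). For named pathway genes, 89 of 1293 values lost their call and none changed direction. These genes were named because they were called, and those picked by size also had the same direction in both replicates. A change of direction was therefore unlikely from the start. Of 273 log2 differences of the 7 genes, 8 moved by more than the spread between replicates, among them CEMIP in MPS-LM against MPS-24h without replicate 1 (-3.86). Most of these differences leave out 1 replicate, and the spread was taken from the same replicates. Few could move by this rule, so the count is no measure of stability. Replicate numbers were not taken as pairs, since the labels name no shared batch or day. Replicate differences were still shared in part. Over 136 pairs of conditions their correlation ran from -0.20 to 0.57 (median 0.16), with 96 over 0.1. HAS2, for example, was higher in replicate 1 in most conditions. The fit without pairs leaves such a shift in the spread between libraries. A replicate block gave 25 genes in DE(a)-24h, 15 for PPS-PM and 19 for PPS-LM, where the fit without it gave 22, 11 and 14. Over all genes it called more in each of the 13 comparisons, with 4045 against 3395 in DE(a)-24h and 2181 against 1541 for PPS-PM. Differences of few counts, as for CEMIP and for HAS3 in LM, were not resolved at this depth.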
